A study of Mus musculus with 6 samples.

Results

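Zinc handling in pancreatic islets was followed through 9 genes chosen by symbol, the zinc exporters Slc30a1, Slc30a4, Slc30a5, Slc30a6, Slc30a7, Slc30a8 and Slc30a9 and the metallothioneins Mt1 and Mt2, out of 21813 gene symbols with values. The libraries came from islets of 3 Ucn3 null male mice and 3 wild-type male littermates, all adults aged 3 months, with 1 library per animal. Ucn3 encodes urocortin 3, a peptide hormone of the corticotropin-releasing factor family made by mature beta cells, and the labels do not describe the null allele further. All animals were untreated as far as the labels say, and the islets were isolated with collagenase. The labels call the cells mixed, while the extraction protocol also mentions a cell sort.

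Beta cells pack insulin into secretory granules as zinc-bound crystals, so islets hold and release much zinc. Transporters of the Slc30a (ZnT) family move zinc out of the cytosol, into organelles or out of the cell, and those of the Slc39a (ZIP) family move it into the cytosol. Metallothioneins are small cysteine-rich proteins that bind zinc and copper in the cytosol, and their genes are induced by zinc through the factor MTF-1, by glucocorticoids and by stress.

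Levels are given as RPKM, a read density scaled for transcript length and library depth. Depth was estimated from the spacing of low values, at about 46505000 to 51890000 reads in the null libraries and 42575000 to 48465000 reads in the wild-type libraries. Ucn3 itself was at 1.61, 1.63 and 1.80 RPKM in null islets and at 136, 157 and 155 RPKM in wild-type islets, so every library matched its label. The 8 beta cell markers averaged 9.997 to 10.21 on the log2(RPKM + 1) scale in null libraries and 10.01 to 10.17 in wild-type libraries, and none was at 0. Their sum was 229901 to 254565 RPKM in null libraries and 246529 to 285390 RPKM in wild-type libraries. The libraries differed in markers of acinar cells, the enzyme-making cells that surround islets. The acinar markers tested, 16 of 17 listed, summed to 4729 to 23483 RPKM in null libraries and 536 to 6477 RPKM in wild-type libraries, with none at 0. Delta cell markers, 3 of 3 tested, summed to 682 to 1083 RPKM in null islets and 1746 to 2404 RPKM in wild-type islets. The part of these cell types in the results below was not tested unless a value is given.

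No difference between Ucn3 null and wild-type islets passed the test for any of the 9 genes. All 9 averaged at least 1 RPKM and were tested, and limma adjusted p-values over the 12652 genes tested ran from 0.58 to 0.99. At an unadjusted p under 0.05 the count was also 0 of 9, where 9.36% of all tested genes passed. Over all genes 0.0158% passed the adjusted threshold, which was Ucn3 and Marcksl1-ps4, the second named after its value was seen, to complete that count of 2. Of the 9, 3 had a positive and 6 a negative log2 difference (null over wild type) with a median of -0.08, beside a median of -0.03 over all tested genes, of which 4843 were positive and 7809 negative. With median-ratio scaling the median over all tested genes was 0.0054, so its sign depends on the scaling. In 1 of the 9, Slc30a4, the values of the groups did not overlap, where 15.2% of all tested genes showed no overlap. In whole islets, fewer cells of a type and less RNA per cell cannot be told apart, and this holds for each level given here.

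**Figure D1:**
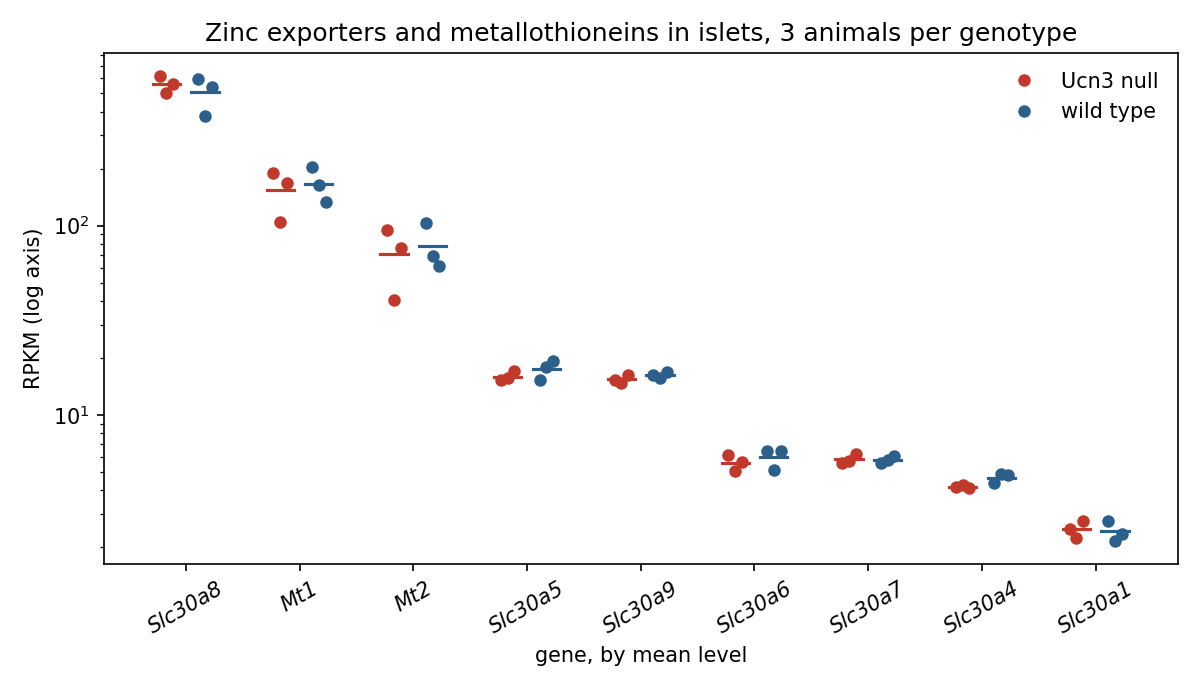
RPKM on a log axis for each of the 9 genes, ordered by mean level; each point is 1 library (3 Ucn3 null, 3 wild type) and each short line the mean of its group. Slc30a8 lies between 382 and 615 RPKM and Slc30a1 between 2.17 and 2.75 RPKM, and only the points of Slc30a4 separate by genotype.

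Slc30a8 encodes ZnT8, the transporter that carries zinc into insulin granules. It stood at 615, 504 and 557 RPKM in the null libraries and at 597, 382 and 538 RPKM in the wild-type libraries. The groups overlapped, and wild type replicate 2 was the lowest of all 6 libraries. The means were 559 ± 55.6 RPKM in null islets and 506 ± 111 RPKM in wild-type islets (SD, n = 3 each), a ratio of 1.11. The log2 difference was 0.16 (SE 0.18, limma adjusted p = 0.82), and its 95% interval, -0.26 to 0.59, covers ratios from 0.835 to 1.504. Without wild type replicate 2 the difference was -0.03, so its sign rests on that library, and with the acinar marker mean as a covariate it was -0.20. The values correspond to between 36213 and 62947 reads per library, so counting error is small beside the spread between libraries.

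Slc30a8 was the main exporter transcript in every library. It ranked 35th, 36th and 27th among the 12652 tested genes in null libraries 1 to 3, and 27th, 33rd and 23rd in wild-type libraries 1 to 3. It made up 92.6%, 91.4% and 91.5% of the summed RPKM of the 7 exporters in null islets and 92.2%, 88.1% and 90.6% in wild-type islets. The other 6 exporters together gave 49.0, 47.7 and 51.9 RPKM in null islets and 50.7, 51.5 and 55.6 RPKM in wild-type islets. The exporter with the next highest level was 40.1, 32.3 and 32.8 times lower than Slc30a8 in null islets and 36.7, 21.2 and 28.0 times lower in wild-type islets. The low share in wild type replicate 2 therefore came with a low Slc30a8 level and not with a high level of the other 6 exporters.

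The exporters of the early secretory pathway are Slc30a5 and Slc30a6, whose products pair as a heterodimer, and Slc30a7, which acts in the Golgi apparatus. These transporters supply zinc to enzymes made in the secretory pathway. Slc30a5 was at 15.2, 15.6 and 16.97 RPKM in null islets and at 15.2, 18.0 and 19.2 RPKM in wild-type islets. The lowest wild-type value fell just under the lowest null value, and the highest values were wild type. The log2 difference was -0.12 (SE 0.09, limma adjusted p = 0.73) with a 95% interval of -0.34 to 0.10, and with the acinar mean as a covariate it was 0.031. It was -0.21 without wild type replicate 1 (limma adjusted p = 0.36) and -0.053 without wild type replicate 3. Its partner Slc30a6 was lower by level, at 6.14, 5.06 and 5.61 RPKM in null islets and 6.48, 5.13 and 6.42 RPKM in wild-type islets. The Slc30a6 groups overlapped, and the difference of -0.08 had an interval of -0.32 to 0.15 (limma adjusted p = 0.84).

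Slc30a7 was at 5.54, 5.73 and 6.19 RPKM in null islets and at 5.57, 5.77 and 6.04 RPKM in wild-type islets. It was the steadiest of the 9 genes. Its SD over the 6 libraries was 0.05 on the log2(RPKM + 1) scale, and 4.74% of tested genes had a smaller one. The log2 difference was 0.00 with an interval of -0.15 to 0.16, which covers ratios from 0.900 to 1.12 (limma adjusted p = 0.99). In the reference transcripts 19.4% of the 36-base stretches of Slc30a7 also lie in other genes, among them Gm6649 and Gm43106 on the opposite strand, so part of its reads could belong to those genes.

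Slc30a9 encodes a transporter that in human cells and worms exports zinc from mitochondria. It stood at 15.4, 14.7 and 16.3 RPKM in null islets and at 16.3, 15.6 and 16.8 RPKM in wild-type islets. The groups overlapped, the log2 difference was -0.07 (SE 0.07, limma adjusted p = 0.81) and the interval ran from -0.22 to 0.09. Slc30a9 and Slc30a5 shared the second place among exporters. Slc30a9 was the higher of this pair in null replicate 1 and wild type replicate 1, and Slc30a5 was the higher in the other 4 libraries.

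Slc30a4, an exporter of endosomal and other vesicles that loads zinc into milk, was at 4.16, 4.27 and 4.10 RPKM in null islets and at 4.35, 4.85 and 4.802 RPKM in wild-type islets. All 3 null libraries lay below all 3 wild-type libraries, as was the case for 13.2% of all tested genes. The means were 4.18 ± 0.084 RPKM in null islets and 4.67 ± 0.28 RPKM in wild-type islets (SD, n = 3 each). The log2 difference was -0.13 (SE 0.07, 95% interval -0.28 to 0.03), with a limma adjusted p of 0.58. The separation is small: the highest null value and the lowest wild-type value were 4.27 and 4.35 RPKM. Divided by median-ratio scaling factors, 0.943 for null replicate 1 and 1.02 for wild type replicate 1, the groups overlap.

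Slc30a1 encodes the exporter of the plasma membrane and is itself induced by zinc through MTF-1. It had the lowest level of the 9, at 2.496, 2.25 and 2.75 RPKM in null islets and 2.75, 2.17 and 2.36 RPKM in wild-type islets. The groups overlapped, with a log2 difference of 0.03 (SE 0.09, interval -0.19 to 0.25, limma adjusted p = 0.95). On the opposite strand 1700034H15Rik shares 8.33% of the 36-base stretches of Slc30a1 and averaged 0.732 RPKM. The order of levels among the exporters was otherwise stable. Slc30a8 was first, Slc30a4 sixth and Slc30a1 seventh in all 6 libraries, while the neighbouring pairs Slc30a5 and Slc30a9, and Slc30a6 and Slc30a7, changed places between libraries.

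**Figure D2:**
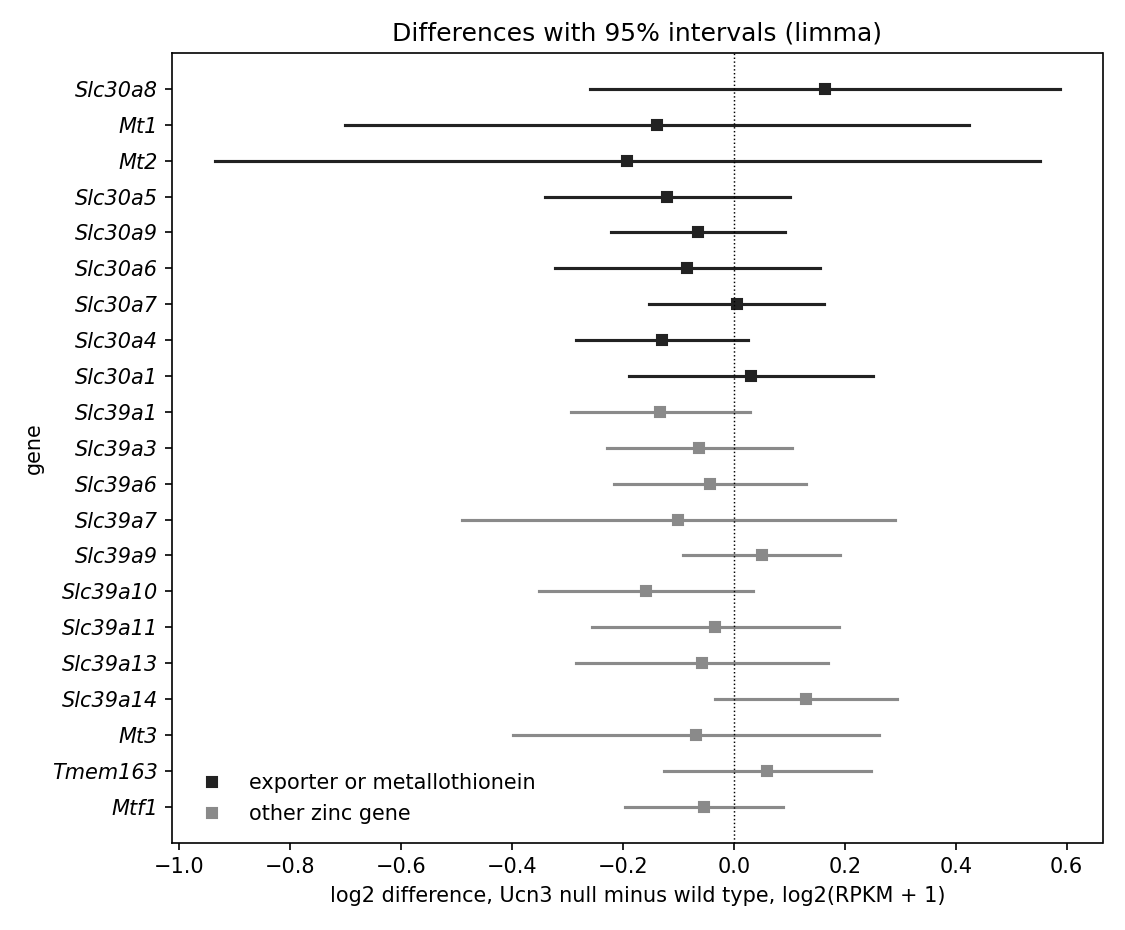
Difference of mean log2(RPKM + 1) between Ucn3 null and wild-type libraries, positive where null is higher, for the 9 genes (black) and for the 12 other zinc genes tested (grey); squares are limma estimates and bars 95% intervals. Every interval includes 0, the widest being that of Mt2, from -0.94 to 0.55.

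The metallothioneins Mt1 and Mt2 lie next to each other on chromosome 8. Their upstream regions are shown because both genes followed the same pattern over the libraries, described below. The sequences are the 250 bases before the gene start from RefSeq (GRCm38.p6, plus strand), which held 8 of the 9 genes. Capitals mark matches to the core of the metal response element, searched as TGCACNC and TGCGCNC on both strands, so a match on the other strand reads GNGTGCA or GNGCGCA. The matches in each gene do not overlap one another. Mt1 lies downstream of chr8:94178839-94179088 and Mt2 downstream of chr8:94172368-94172617.
Mt1: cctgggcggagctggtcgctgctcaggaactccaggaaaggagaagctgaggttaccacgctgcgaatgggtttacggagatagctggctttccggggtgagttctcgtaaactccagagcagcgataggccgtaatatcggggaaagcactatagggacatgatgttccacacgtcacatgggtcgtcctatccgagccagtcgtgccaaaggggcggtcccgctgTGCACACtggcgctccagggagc
Mt2: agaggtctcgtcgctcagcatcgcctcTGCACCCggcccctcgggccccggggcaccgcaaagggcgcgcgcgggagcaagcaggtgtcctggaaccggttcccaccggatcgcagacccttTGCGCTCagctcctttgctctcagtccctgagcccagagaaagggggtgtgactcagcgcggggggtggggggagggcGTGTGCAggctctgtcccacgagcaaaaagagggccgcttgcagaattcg

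The table's window also takes in the first 50 bases after the gene start, which are not shown. Over the whole window of 300 bases Mt1 held 3 matches, starting 23 bases before the start and at bases 3 and 21 after it. Mt2 held 4 matches, starting 223, 128 and 50 bases before the start and at base 5 after it. Among 32851 promoters of the same length, 1.97% held 3 or more matches and 0.517% held 4 or more. Slc30a4 held 3 matches, Slc30a1 held 2, Slc30a5 held 1, and Slc30a6, Slc30a7 and Slc30a9 held 0, and 25.7% of all promoters held 1 or more. The first GENCODE start of Mt1 lies 7 bases before the RefSeq start used here, and that of Mt2 lies 46 bases after it. Any later starts of either gene were not compared, and matches past the first 50 bases were not counted. A match is a run of letters and not a measured binding site.

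Mt1 was at 189, 104 and 167 RPKM in null islets and at 203, 163 and 133 RPKM in wild-type islets. The groups overlapped across most of their range, and the highest library was 1.95 times the lowest. The means were 153 ± 44.0 RPKM in null islets and 166 ± 35.3 RPKM in wild-type islets (SD, n = 3 each). The log2 difference was -0.14 (SE 0.24, limma adjusted p = 0.90) with a 95% interval of -0.70 to 0.42. That interval covers ratios from 0.615 to 1.34, so differences of that size in either direction are not excluded. It does not give the size of change that the adjusted threshold could have detected.

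Mt2 was at 94.9, 40.3 and 76.0 RPKM in null islets and at 103, 69.0 and 61.4 RPKM in wild-type islets. Its highest library was 2.56 times its lowest, the widest range of the 9 genes. The log2 difference was -0.19 (SE 0.32, limma adjusted p = 0.90), with an interval of -0.94 to 0.55. Without null replicate 2 the differences were 0.12 for Mt1 and 0.16 for Mt2, and without wild type replicate 1 they were 0.02 and 0.03, so their sign rests on single libraries. On the opposite strand, Gm45774 holds 52.9% of the 36-base stretches of Mt2, so some of the reads on Mt2 could belong to it, while Mt1 shared none of its stretches with another gene, Mt2 included.

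Both metallothioneins were highest in wild type replicate 1, followed by null replicate 1, and both were lowest in null replicate 2. Their summed level was 284, 144 and 243 RPKM in null islets and 306, 232 and 194 RPKM in wild-type islets. Mt1 exceeded Mt2 in every library, by ratios of 1.99, 2.58 and 2.20 in null islets and 1.97, 2.37 and 2.16 in wild-type islets. Variation was taken as the SD over the 6 libraries, both genotypes pooled, on the log2(RPKM + 1) scale, which compresses the SD of low genes. By this measure 95.5% of tested genes had a smaller SD than Mt1, and 97.5% had a smaller SD than Mt2. For Slc30a8 the share was 91.4%, and for the other 6 exporters it ran from 4.74% to 64.2%.

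The genes whose pattern came closest to that of Mt1 were Hsp90aa1, Mt2, Hspe1, Hspa8 and Spry1. Likeness was the root mean square difference of log2(RPKM + 1), each gene centred on its own mean, over the 6 libraries. Mt2 was second of all tested genes at 0.13, after Hsp90aa1 at 0.12, where Mt1 itself varied about its mean by 0.32. Hsp90aa1 and Hspa8 encode cytosolic chaperones and Hspe1 the co-chaperonin of mitochondria, while Spry1 encodes an inhibitor of receptor tyrosine kinase signalling. Hsp90aa1 was at 78.1, 54.0 and 68.6 RPKM in null islets and at 91.3, 70.6 and 62.4 RPKM in wild-type islets. Hspa8 was at 324, 232 and 290 RPKM in null islets and at 340, 298 and 258 RPKM in wild-type islets. Each had its lowest value in null replicate 2 and its highest in wild type replicate 1, which follows from their choice as the genes nearest to Mt1.

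Glucocorticoid-responsive genes were read beside the metallothioneins, and 7 of the 8 listed were tested. None passed (limma adjusted p from 0.75 to 0.95), and 6 had a positive and 1 a negative difference, with a median of 0.14. Fkbp5, which encodes a co-chaperone of the glucocorticoid receptor, was at 15.4, 10.45 and 9.10 RPKM in null islets and 16.0, 7.88 and 8.93 RPKM in wild-type islets. Sgk1, which encodes a kinase, was at 14.0, 8.54 and 10.3 RPKM in null islets and 13.9, 8.27 and 7.65 RPKM in wild-type islets. In 6 of the 7 genes the highest 2 libraries were null replicate 1 and wild type replicate 1, which were also the highest 2 for Mt1 and Mt2. Over all tested genes 7.21% had these 2 libraries highest, and the likeness itself was not tested. The exception was Dusp1, which was high in null replicate 3 and wild type replicate 1. The lowest library mostly differed from that of Mt1 and Mt2, which was null replicate 2. Of the 7 genes only Tsc22d3 was lowest there, at 7.98 RPKM. Fkbp5 and Klf9 were lowest in wild type replicate 2, and Per1, Sgk1, Errfi1 and Dusp1 in wild type replicate 3.

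Slc30a8 followed another pattern. Its nearest genes were Gm572, Ubn2, Xkr6, Zfp369 and E330009J07Rik, at root mean square differences of 0.04 to 0.05, where Slc30a8 itself varied about its mean by 0.23. Each had its lowest value in wild type replicate 2, which likewise follows from the choice. Gm572 was at 45.9, 37.0 and 39.7 RPKM in null islets and at 42.7, 26.2 and 37.2 RPKM in wild-type islets. Xkr6 was at 14.4, 11.9 and 13.3 RPKM in null islets and at 14.0, 9.53 and 12.5 RPKM in wild-type islets. Wild type replicate 2 was also the library with the lowest acinar marker mean, at 4.22 on the log2(RPKM + 1) scale. The null libraries stood at 6.81 to 8.74 on that scale and the other wild-type libraries at 5.96 to 7.07. The 8 beta cell markers summed to 229901, 254565 and 246840 RPKM in null islets and 246529, 285390 and 270411 RPKM in wild-type islets. Their sum was highest in wild type replicate 2, where Slc30a8 was lowest, and lowest in null replicate 1, where Slc30a8 was highest. The sum gives most weight to the most abundant markers. By their mean log2(RPKM + 1), the measure used above for acinar markers, null replicate 1 was also lowest, at 9.997. By that mean, however, null replicate 2 was highest, at 10.21, and wild type replicate 2 stood at 10.16. The part of acinar or beta cell RNA in the Slc30a8 level was not tested.

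**Figure D3:**
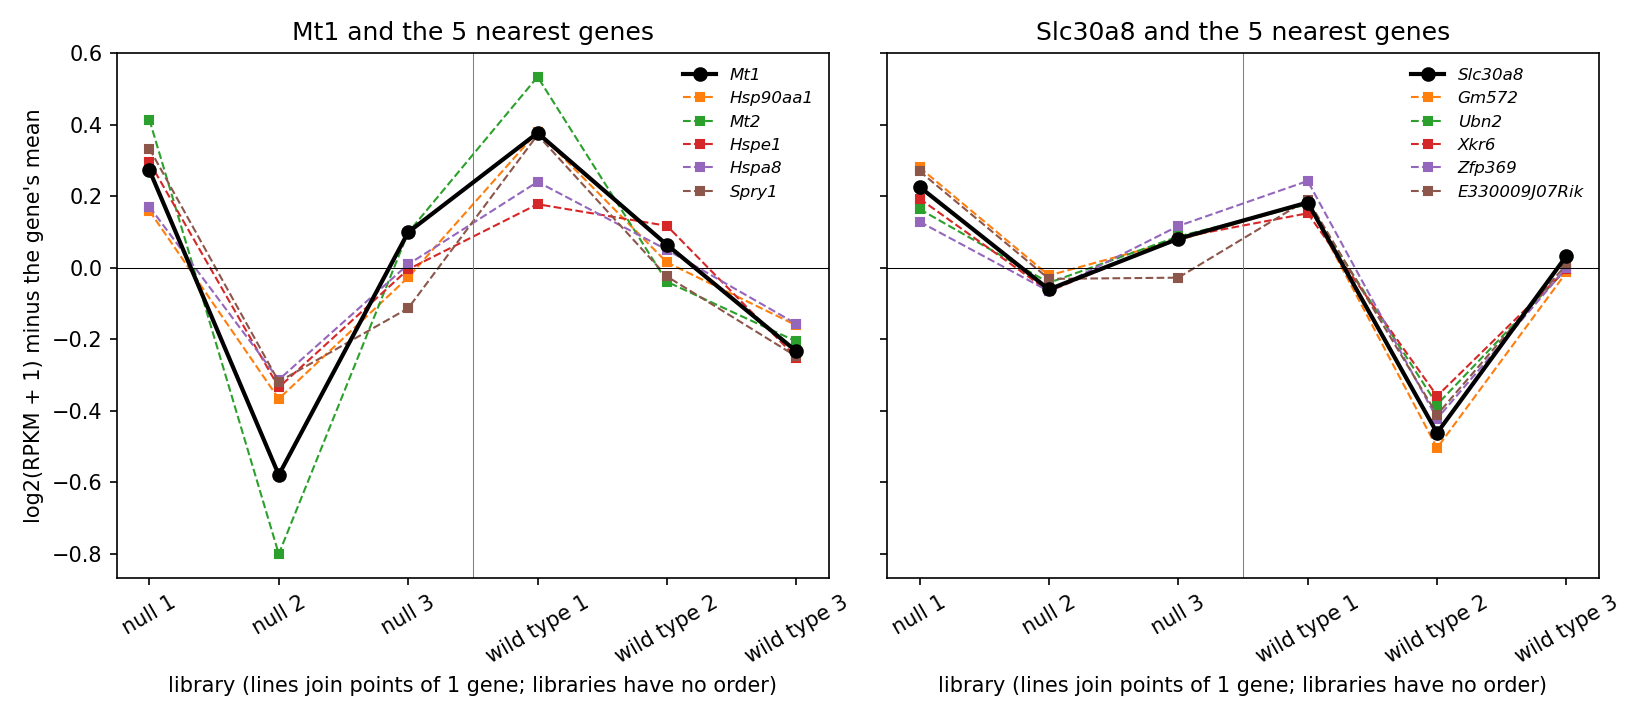
Log2(RPKM + 1) minus the gene's own mean in each library, null libraries on the left and wild-type libraries on the right of each panel, for Mt1 (left) and Slc30a8 (right) with their 5 nearest genes. The Mt1 group is lowest in null replicate 2 and the Slc30a8 group in wild type replicate 2; lines only join the points of 1 gene.

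The zinc importers showed no difference that passed either. Of the 14 Slc39a genes, 9 were tested, 2 with a positive and 7 with a negative log2 difference and a median of -0.06 (limma adjusted p from 0.59 to 0.95). Slc39a7, which releases zinc from the endoplasmic reticulum and Golgi apparatus, had the highest level at 51.3, 65.4 and 69.7 RPKM in null islets and 52.5, 76.3 and 72.1 RPKM in wild-type islets. Both groups held 1 low library, and the difference of -0.10 had an interval of -0.49 to 0.29. Slc39a7 exceeded Slc30a5, which acts in the same compartments in the other direction, by ratios of 3.37, 4.19 and 4.11 in null islets and 3.45, 4.24 and 3.76 in wild-type islets.

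The other importers tested lay between 3 and 14 RPKM. Slc39a9, an importer of the Golgi apparatus and plasma membrane, averaged 13.3 ± 0.14 RPKM in null islets and 12.8 ± 0.47 RPKM in wild-type islets (SD, n = 3 each). Slc39a13, of the Golgi apparatus and vesicles, averaged 10.3 ± 1.28 and Slc39a11 6.98 ± 0.85 RPKM in null islets, against 10.7 ± 0.76 for Slc39a13 and 7.15 ± 0.53 RPKM for Slc39a11 in wild-type islets (SD, n = 3 each). Slc39a1, a plasma membrane importer, was at 6.81, 7.31 and 7.498 RPKM in null islets and at 7.54, 8.43 and 8.03 RPKM in wild-type islets. Its groups did not overlap, 1 of the 9 importers tested, where 15.2% of all tested genes showed no overlap, with a log2 difference of -0.13 (SE 0.07, limma adjusted p = 0.59).

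Slc39a3, also of the plasma membrane, averaged 6.05 ± 0.48 RPKM in null islets and 6.35 ± 0.13 RPKM in wild-type islets, and Slc39a6 averaged 5.75 ± 0.19 RPKM in null islets and 5.96 ± 0.50 RPKM in wild-type islets (SD, n = 3 each). Slc39a10, an importer of the plasma membrane, averaged 3.30 ± 0.32 RPKM in null islets and 3.799 ± 0.27 RPKM in wild-type islets, with a log2 difference of -0.16 (SE 0.08, limma adjusted p = 0.59). Slc39a14, which also carries iron and manganese, averaged 3.998 ± 0.26 RPKM in null islets and 3.56 ± 0.15 RPKM in wild-type islets, with a difference of 0.13 (SE 0.07, limma adjusted p = 0.61).

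Among the 7 other zinc genes listed, 3 were tested and none passed (limma adjusted p from 0.83 to 0.92). Tmem163, which encodes a vesicular zinc exporter outside the Slc30a family, was at 24.4, 22.3 and 20.6 RPKM in null islets and 22.6, 20.7 and 21.1 RPKM in wild-type islets. Its level thus lay above those of all exporters of the Slc30a family but Slc30a8. Mtf1, the zinc-sensing factor, was at 3.998, 4.10 and 4.07 RPKM in null islets and 4.15, 4.20 and 4.40 RPKM in wild-type islets. The Mtf1 groups did not overlap, 1 of the 3 other zinc genes tested, where 15.2% of all tested genes showed no overlap. The Mtf1 log2 difference of -0.05 (SE 0.06, limma adjusted p = 0.83) did not pass. Mt3, the metallothionein best known from brain, was at 3.56, 3.38 and 3.21 RPKM in null islets and 2.63, 4.30 and 4.04 RPKM in wild-type islets, with its lowest value in the library where Mt1 and Mt2 were highest.

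The remaining 9 listed genes averaged under 1 RPKM, and 3 of these, Slc39a5, Slc39a4 and Slc39a8, had groups that did not overlap. Of all 9161 genes averaging under 1 RPKM, 9.68% showed no overlap between groups. The exact two-sided permutation p was 0.1 for each, the smallest that 3 against 3 libraries allow, and 0.3 after Benjamini-Hochberg adjustment over the 9. Slc39a5, an importer of the pancreas and gut, was at 2.15, 1.29 and 0.622 RPKM in null islets and 0.506, 0.109 and 0.304 RPKM in wild-type islets. The libraries stood in nearly the order of the acinar marker means, which were 8.74, 8.12 and 6.81 in null islets and 7.07, 4.22 and 5.96 in wild-type islets. Slc30a2, an exporter of secretory vesicles, was at 0.203, 0.113 and 0.0194 RPKM in null islets and 0.0283, 0.0125 and 0.0186 RPKM in wild-type islets, and it too was highest in the libraries with the most acinar marker RNA, null replicates 1 and 2. The part of acinar RNA in both was not tested. Read numbers were not estimated for genes averaging under 1 RPKM, and the lowest Slc30a2 values may rest on few reads.

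Slc39a4, an importer best known from the gut, was at 0.546, 0.253 and 0.222 RPKM in null islets and 1.11, 0.934 and 0.566 RPKM in wild-type islets. Ductal markers, 9 of 10 tested with none at 0, summed to 241 to 298 RPKM in null islets and 295 to 391 RPKM in wild-type islets, and their part in the Slc39a4 level was not tested. Slc39a8 was at 0.403, 0.239 and 0.342 RPKM in null islets and 0.436, 0.686 and 0.414 RPKM in wild-type islets. In the fit without a filter on low values the limma adjusted p was 0.55 for Slc39a5, 0.55 for Slc39a4 and 0.61 for Slc39a8. Slc39a12 averaged 0.793 RPKM in null islets and 0.895 RPKM in wild-type islets, and Slc39a2, Slc30a3, Slc30a10 and Mt4 stayed under 0.4 RPKM in every library.

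**Figure D4:**
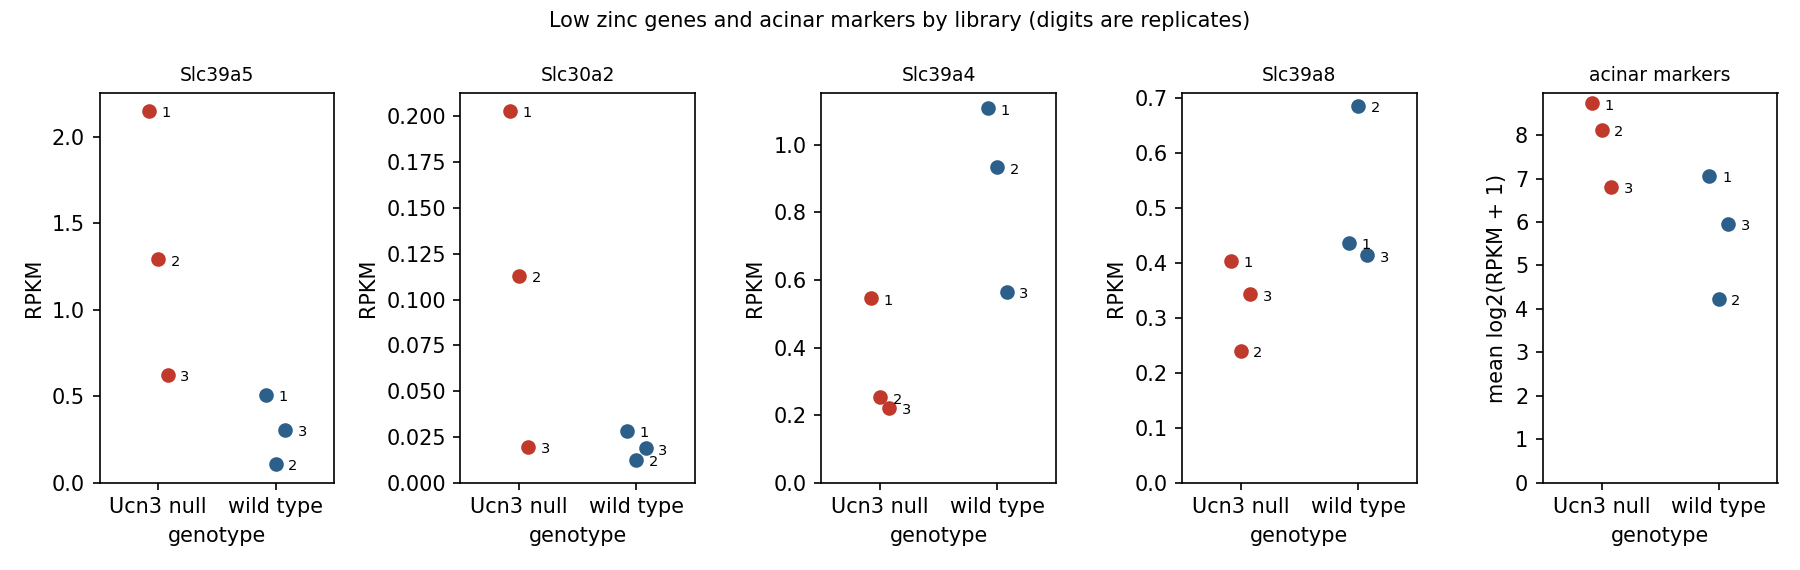
RPKM of 4 zinc genes that averaged under 1 RPKM, and the mean log2(RPKM + 1) of the acinar markers, for the 3 Ucn3 null and 3 wild-type libraries; each point is 1 library and the digit beside it its replicate. Slc39a5 reaches 2.15 RPKM in null replicate 1, which also has the highest acinar mean, 8.74.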

How the data were processed

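The members and gene lists were chosen with earlier results of these data known. Total RNA from islets was made into libraries with the TruSeq RNA kit v2, per the labels' protocols. The authors deposited 1 table of RPKM values per RefSeq transcript. The submitters' processing notes name STAR, bedtools, DESeq and the build mm9, without roles or versions; the sources used here do not give how shared reads or strand were treated. Of 28129 rows, 117 had no values and 1 held text in a value cell; 28011 were used. A gene with several transcripts was represented by that of highest mean RPKM, and the test was limited to genes with a mean of 1 RPKM or more across the 6 libraries.

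Values were taken as log2(RPKM + 1) and fitted with limma 3.58.1 (R 4.3.3), genotype as the only term, eBayes with a mean trend, and Benjamini-Hochberg adjustment over 12652 genes at 0.05. Fold changes on this scale understate those of low genes. The labels pair no animals between genotypes. Library pairs correlated across genes at 0.955 to 0.989, and 0 pairs were identical. The fit was tested on simulated data. Alternatives changed the pseudocount, filter, transcript, scaling, trend and acinar covariate, and left out each library.

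The depth came from RPKM steps and GENCODE transcript lengths (release M21), found for 97.5% of rows; with a tolerance of 0.1 read, 74.2% to 75.5% of low values came out whole, so read numbers are estimates. The named genes were the 9 members, Ucn3, listed zinc and glucocorticoid-responsive genes, and the 5 nearest in pattern to Mt1 and Slc30a8. Marcksl1-ps4 and the genes that share stretches with a member fall outside this rule. Promoters were matched by symbol to RefSeq of another build than the table's. Figures used matplotlib 3.10.9 in Python 3.11.15.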

Additional observations from a re-analysis of the deposited data

How the results depend on the processing

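No paired analysis was possible because the labels give the animals no shared replicate numbers. The replicate numbers used here only count the libraries within each genotype, so equal numbers do not mark a pair or a batch. Under the 15 alternatives, none of the 9 members passed the threshold (133 values, lowest limma adjusted p 0.36), and neither did any importer or other zinc gene; Slc30a4, Slc30a6, Slc39a1, Slc39a3, Slc39a9, Slc39a10 and Slc39a14 kept their sign in each alternative run, and Ucn3 stayed past the threshold. The count of genes called, 2 of 12652, was 4 without a filter, 1 at a mean of at least 5 RPKM, 1 with the acinar covariate, and 1 to 5 with 1 library left out (5 without null replicate 1, 1 without null replicate 2). With 1 library left out the log2 difference ranged from -0.025 to 0.30 for Slc30a8, -0.31 to 0.12 for Mt1, -0.45 to 0.16 for Mt2, -0.024 to 0.098 for Slc30a1, -0.034 to 0.034 for Slc30a7, -0.21 to -0.053 for Slc30a5, -0.26 to 0.029 for Slc39a7, -0.10 to 0.052 for Slc39a11, -0.14 to 0.014 for Slc39a13 and -0.24 to 0.034 for Mt3. With the acinar covariate the sign turned for Slc30a8 (-0.20), Slc30a1 (-0.041), Slc30a5 (0.031), Slc39a6 (0.043), Slc39a7 (0.29), Slc39a11 (0.16), Slc39a13 (0.13), Mt3 (0.15) and Tmem163 (-0.076). With equal totals after leaving out the acinar markers it turned for Slc30a9 (0.0022), Slc39a6 (0.019), Slc39a11 (0.029), Slc39a13 (0.0086) and Mtf1 (0.0047), and with median-ratio factors for Slc39a11 (0.0077). The causes were not tested. Lack of overlap between groups was read on the deposited RPKM. Divided by the median-ratio factors, the groups of Slc30a4, Slc39a1, Mtf1, Slc39a4 and Slc39a8 overlap, and those of Slc39a5 do not. The median of all genes, -0.03, was 0.0054 with median-ratio factors, -0.0042 with upper-quartile factors and 0.025 with equal totals without acinar markers. Its sign thus depends on the scaling, and many of the differences given here are of similar size to these shifts. With 3 animals per genotype, intervals are wide for Mt1, Mt2 and Slc30a8.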
